A study of Mus musculus with 8 samples.

Results

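The genes described here are 30 mouse genes of the osteoblast lineage and of bone mineralization, named by symbol in a list of known bone genes rather than by a threshold on their values. The list was chosen with earlier results of these data known. All 30 were found among the 52636 genes of the count matrix. They fall into 4 stages, with 8 transcription factors, 11 genes of the matrix-producing osteoblast, 6 genes of mineralization and 5 genes of the osteocyte. The measured cells were leptin receptor positive (LEPR+) mesenchymal stem cells, sorted 2 times from the long-bone marrow of C57BL/6 mice by the absence of CD45, CD31, CD144 and Ter119. The tested mice received LTβR-Ig, a receptor-immunoglobulin fusion that captures lymphotoxin β receptor ligands, and the control mice received an immunoglobulin against hen egg lysozyme, each at 150 µg intravenously once a week for 3 weeks. Each group has 4 libraries of bulk polyA RNA. The sources used here give no age or sex. Nor do they state whether the 4 libraries of a group are 4 mice, pools or repeats, so the p-values describe library spread, which may be technical.

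LEPR+ stromal cells surround the marrow sinusoids and are a source of osteoblasts in the adult mouse. In the osteoblast lineage, RUNX2 commits a mesenchymal progenitor, and osterix, the product of Sp7, acts downstream of it. Osteoblasts then secrete a collagen matrix, mineralize it through phosphatases and phosphate transport, and some become osteocytes enclosed in the bone.

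Total gene counts lay between 52378101 and 64403177 per library, and 18383 to 19781 genes were detected per library. Lepr stood between 3159 and 4498 CPM, that is the counts of a gene relative to its TMM-scaled library total, across all 8 libraries. The gate genes Ptprc (CD45), Pecam1 (CD31) and Cdh5 (CD144) stood between 21.7 and 61.1, 4.05 and 44.4, and 1.17 and 20.9 CPM. None of these was at 0. The gate also left out Ter119, yet the sum of 5 erythroid markers was 11789 to 26621 CPM with LTβR-Ig and 11891 to 35831 CPM in control. In bulk RNA, fewer cells of a type and less RNA per cell cannot be told apart.

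The osteocalcin genes Bglap, Bglap2 and Bglap3 lie side by side on the minus strand of chromosome 3 and have nearly the same coding sequence, so reads of one may be counted for another. Their coding sequences are shown because the counts of these 3 members depend on how far they differ. They were taken from GENCODE M21 on GRCm38 (mm10), run 5′ to 3′ without the stop codon, and have capitals at the 13 positions that are not equal in all 3 genes. Each has 285 bases.
Bglap, chr3:88383501-88384464: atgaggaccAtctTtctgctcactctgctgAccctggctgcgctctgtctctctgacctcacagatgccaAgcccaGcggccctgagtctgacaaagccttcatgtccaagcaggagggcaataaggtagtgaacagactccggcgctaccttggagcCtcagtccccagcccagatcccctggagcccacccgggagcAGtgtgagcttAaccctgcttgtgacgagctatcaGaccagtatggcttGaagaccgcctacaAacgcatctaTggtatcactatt
Bglap2, chr3:88377736-88378699: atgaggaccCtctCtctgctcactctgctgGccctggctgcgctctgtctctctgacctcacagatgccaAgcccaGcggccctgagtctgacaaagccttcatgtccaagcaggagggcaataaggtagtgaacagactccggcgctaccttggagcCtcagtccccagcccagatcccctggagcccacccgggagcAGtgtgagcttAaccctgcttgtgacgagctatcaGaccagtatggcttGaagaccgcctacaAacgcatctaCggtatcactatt
Bglap3, chr3:88368616-88372743: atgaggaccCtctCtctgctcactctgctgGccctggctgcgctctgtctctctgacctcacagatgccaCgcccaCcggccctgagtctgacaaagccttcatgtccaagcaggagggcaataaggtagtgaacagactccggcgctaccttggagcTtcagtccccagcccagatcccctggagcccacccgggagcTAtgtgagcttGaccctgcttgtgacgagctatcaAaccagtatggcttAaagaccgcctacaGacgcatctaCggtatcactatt
Bglap2 matched Bglap at 98.6% of bases, with 4 differences. Bglap3 matched Bglap at 95.4% with 13 differences and Bglap2 at 96.8% with 9 differences. Of the 210 windows of 76 bases in the coding sequence, the length of 1 read, 166 were identical between Bglap2 and Bglap, against 6 between Bglap3 and either of the other genes. The split of counts between Bglap and Bglap2 is therefore uncertain, and the 3 genes are also given as a sum. If reads matching more than 1 of these genes were dropped in counting, the sum and the single levels are too low as well.

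Across the 27 members with enough counts to test, none passed edgeR's quasi-likelihood test at an adjusted p under 0.05 in either direction. Over all 16045 genes tested, 0% were called higher and 0.0374% lower with LTβR-Ig by the same rule. The log2 fold change of LTβR-Ig over control was above 0 for 23 members and below 0 for 4, which were Runx2, Msx1, Ibsp and Enpp1. Of all genes tested, 49.7% had a value above 0. The median log2 fold change was 0.45 over the tested members and -0.00 over all genes. By stage the medians were 0.57 for 7 transcription factors, 0.41 for 11 matrix-stage genes, 0.62 for 6 mineralization genes and 0.63 for 3 osteocyte genes. Some rested on genes with few counts. The osteocyte median was the value of Pdpn, at most 5.54 CPM in any library. The mineralization median lay between Mgp at 0.61 and Phospho1 at 0.63, and Phospho1 had at most 0.664 CPM. The transcription factor median was the value of Vdr. Single libraries decided the size of some of these values. The median log2 fold change of members was 0.70 without LTβR-Ig replicate 1, 0.27 without control replicate 1 and 1.00 without control replicate 4. For the regulators, the median log2 fold change of transcription factor members was 0.26 without LTβR-Ig replicate 2 and 0.35 without control replicate 1. The median log2 fold change of matrix-stage osteoblast members was 0.70 and -0.07 without LTβR-Ig replicates 1 and 3, and 0.12, 0.15 and 1.06 without control replicates 1, 2 and 4. Without control replicate 1 the median log2 fold change of mineralization members was 0.37. The median log2 fold change of osteocyte members was 0.97 and 0.34 without LTβR-Ig replicates 2 and 3, and 0.36, 0.37 and 1.46 without control replicates 1, 2 and 4. At an unadjusted p under 0.05, edgeR placed 5 members higher with LTβR-Ig, which is 18.5% of those tested against 3.39% of all genes, and 0 members lower against 2.93% of all genes. The 5 were Sp7, Tmem119, Kcnk2, Alpl and Phex. With the Wald test of DESeq2, 1 member, Alpl, passed an adjusted p under 0.05, where 0.552% of all genes were called higher, and no member was called lower, where 0.697% of all genes were. The members share regulators and cells, so these counts do not describe independent genes. Nor was the list chosen blind to these data, which limits the comparison with all genes.

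**Figure D1:**
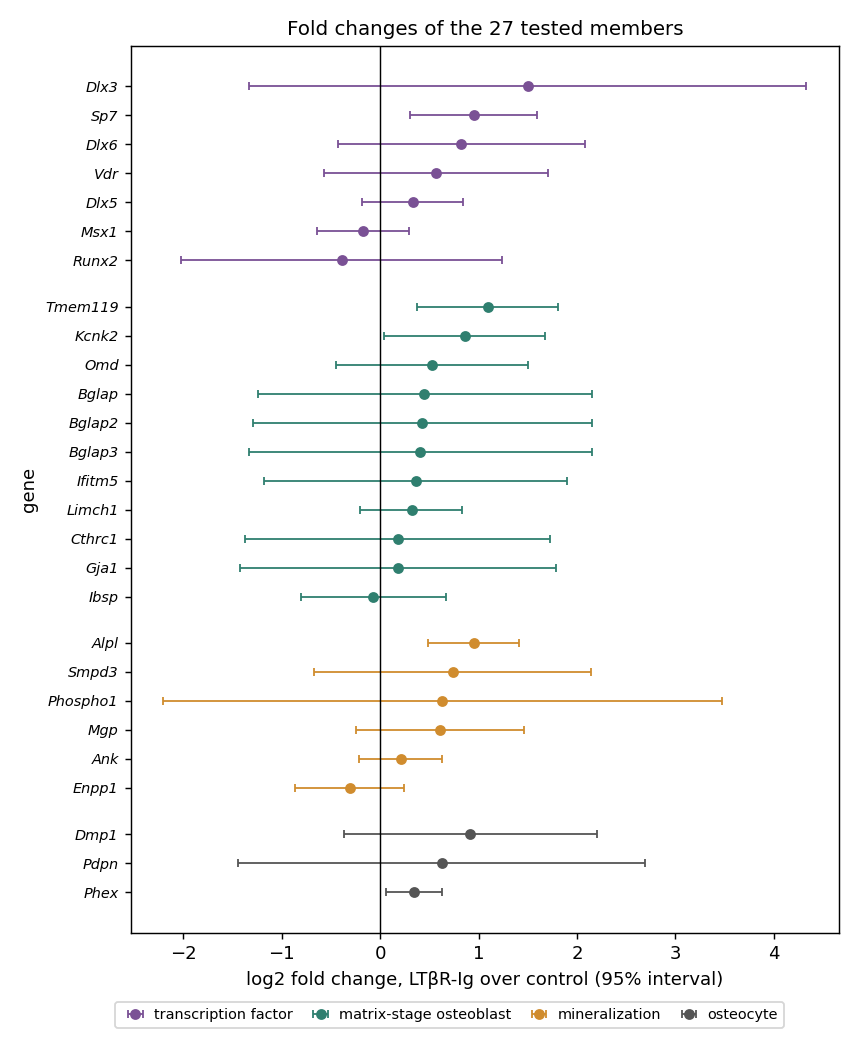
Log2 fold change of LTβR-Ig over control (horizontal axis) for the 27 tested members, grouped by stage and coloured by it, from edgeR with 4 libraries per group. Points are estimates and bars 95% intervals, which lie wholly above 0 for Sp7, Tmem119, Kcnk2, Alpl and Phex and cross 0 for the other 22.

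Runx2 (chr17:44495987-44814797, minus strand) encodes the runt factor that commits cells to the lineage. It had 7, 172, 120 and 203 CPM in LTβR-Ig replicates 1 to 4, against 153, 137, 180 and 189 CPM in control replicates 1 to 4. LTβR-Ig replicate 1 stood 17.1-fold under the lowest of the other 7 libraries, with 432 counts, while the 3 remaining LTβR-Ig libraries lay among the controls or just beside them. The fitted log2 fold change was -0.39 with a standard error of 0.72 (edgeR adjusted p = 1), and without LTβR-Ig replicate 1 it was 0.01. Among 3753 genes with a median of at least 50 CPM in the other 7 libraries, Runx2 was the only one under 0.1 of their lowest value in that library. The same search found 0 to 2 such genes in each of the other libraries, none of them a member. Runx2 overlaps 5 annotated genes, 4 of them on the opposite strand, and the strand setting of the counting is not given.

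Sp7 (chr15:102356606-102367182, minus strand) encodes osterix, the zinc finger factor that acts after RUNX2. It had 36.0, 33.5, 50.3 and 26.1 CPM in LTβR-Ig libraries, against 15.6, 17.2, 14.4 and 28.5 CPM in control libraries. Control replicate 4 stood above LTβR-Ig replicate 4, so the groups overlapped by 1 pair of libraries. Means were 36.5 ± 10.1 CPM with LTβR-Ig and 18.9 ± 6.49 CPM in control (SD, n = 4 each). LTβR-Ig over control gave a log2 fold change of 0.95 with a standard error of 0.28 and a 95% interval of 0.30 to 1.59 (edgeR adjusted p = 0.478).

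The distal-less homeobox factors Dlx3, Dlx5 and Dlx6 act in skeletal development and in osteoblasts. Dlx5 had 67.5, 74.8, 53.5 and 65.8 CPM in LTβR-Ig libraries, against 44.7, 45.7, 39.5 and 77.9 CPM in control libraries. All 4 LTβR-Ig libraries lay above 3 of the controls and below the fourth. Its log2 fold change was 0.33 ± 0.23 (SE). Dlx3 had 2.58, 2.81, 5.41 and 3.31 CPM with LTβR-Ig, against 0, 2.38, 0.303 and 2.30 CPM in control. The groups did not overlap, but 2 of the control libraries lay just under the LTβR-Ig libraries and control replicate 1 held no counts. Its log2 fold change was 1.5 ± 1.25 (SE). Dlx6 stood between 1.95 and 3.74 CPM with LTβR-Ig and between 0.748 and 1.96 CPM in control, with a log2 fold change of 0.82 ± 0.55 (SE), and it overlaps annotated antisense genes.

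The vitamin D receptor gene Vdr ranged from 19.5 to 89.2 CPM with LTβR-Ig and from 15.4 to 41.1 CPM in control. Its log2 fold change was 0.57 ± 0.50 (SE), and the log2 fold change of Vdr was 0.06 without LTβR-Ig replicate 2, the highest library. Msx1, a homeobox factor of craniofacial bone, was the most even transcription factor, with 10.2 to 13.6 CPM with LTβR-Ig against 11.6 to 13.9 CPM in control (-0.17 ± 0.21, log2 fold change and SE). Msx2 had no counts in any of the 8 libraries.

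**Figure D2:**
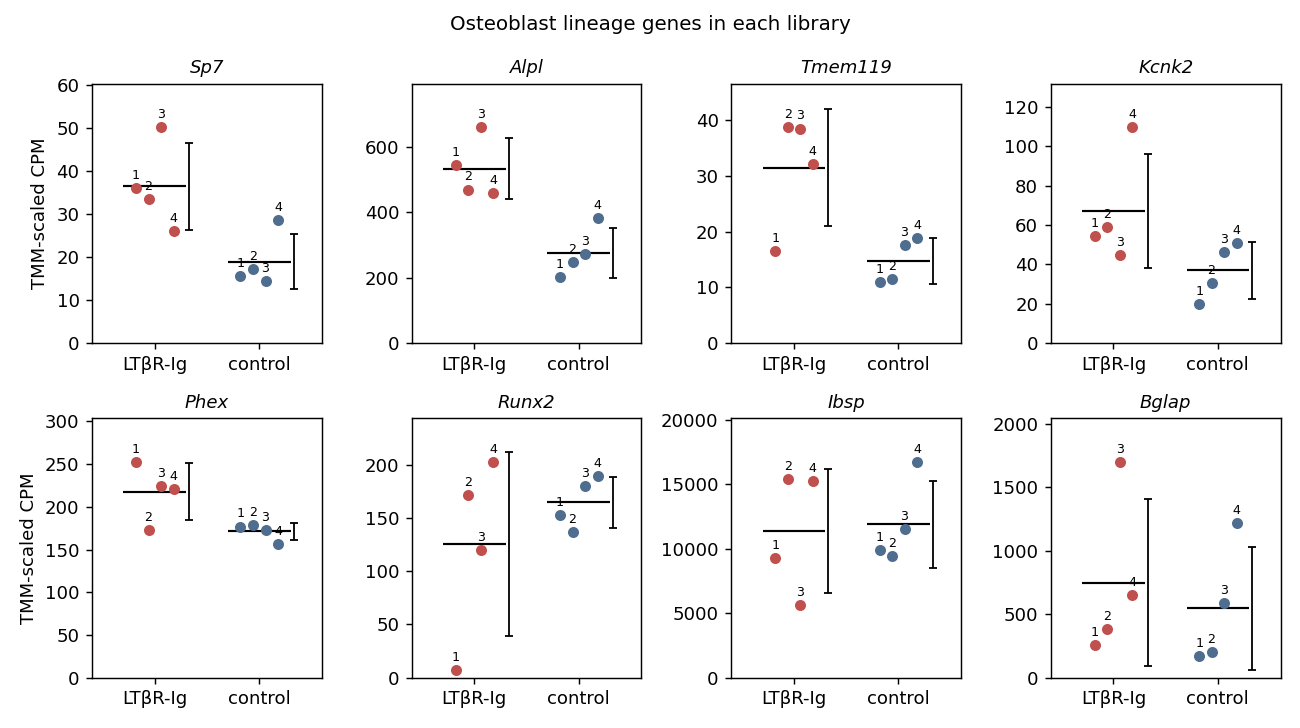
TMM-scaled CPM (vertical axis) of 8 members, LTβR-Ig left of control in each panel, with points for single libraries numbered by replicate, horizontal bars for group means and vertical bars for ± 1 SD (n = 4 each). The groups are apart for Alpl and overlap in the other 7 panels, and the low Runx2 point is LTβR-Ig replicate 1 at 7 CPM.

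Among the matrix-stage genes, Ibsp (chr5:104299171-104311469, plus strand), which encodes bone sialoprotein, was by far the most abundant member. Its median level per kilobase of exon was 5182 CPM per kb, against 783 for Bglap, 405 for Mgp and 319 for Bglap2 on the same scale. Ibsp had 9243, 15373, 5610 and 15234 CPM in LTβR-Ig libraries, against 9906, 9395, 11527 and 16746 CPM in control libraries. The groups overlapped throughout, with the lowest value in LTβR-Ig replicate 3 and the highest in control replicate 4. The log2 fold change was -0.07 with a 95% interval of -0.80 to 0.67, and without these 2 libraries, a setting chosen after seeing the data, it was 0.37.

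Bglap encodes osteocalcin, the calcium-binding protein of the late osteoblast. It had 255, 380, 1702 and 653 CPM in LTβR-Ig libraries, against 172, 204, 588 and 1217 CPM in control libraries. The spread within each group was far wider than the difference between their means of 747 ± 658 and 545 ± 486 CPM (SD, n = 4 each). For Bglap the log2 fold change was 0.45 with a 95% interval of -1.24 to 2.15. Summed over the 3 osteocalcin genes, the level was 500, 747, 3374 and 1272 CPM with LTβR-Ig, against 325, 394, 1253 and 2384 CPM in control. Bglap took 46.9 to 53% of this sum in every library, Bglap2 14.2 to 15.8% and Bglap3 32.8 to 38.4%. The sum differed widely between libraries while the shares stayed within narrow limits. Bglap2 and Bglap3 had log2 fold changes of 0.43 ± 0.76 and 0.41 ± 0.77 (SE). Without LTβR-Ig replicate 3 the log2 fold changes of Bglap, Bglap2 and Bglap3 were -0.34, -0.36 and -0.42, and without control replicate 4 they were 1.22, 1.2 and 1.08.

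The promoter of Bglap is shown because osteocalcin is the textbook target of RUNX2 and Runx2 was nearly missing from LTβR-Ig replicate 1. The window, from RefSeq on GRCm38.p6, runs from 250 bases before to 50 bases after the start, and capitals mark a match to the RUNX core TGTGGT, here on the opposite strand at position -132.
Bglap promoter, chr3:88384417-88384716, minus strand: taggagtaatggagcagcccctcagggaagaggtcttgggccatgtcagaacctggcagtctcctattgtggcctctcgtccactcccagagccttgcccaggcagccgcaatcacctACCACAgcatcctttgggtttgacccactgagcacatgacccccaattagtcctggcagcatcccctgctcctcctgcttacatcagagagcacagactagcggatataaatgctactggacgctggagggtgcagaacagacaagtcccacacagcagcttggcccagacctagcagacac
Promoter windows were found for 21 members, in 30 windows of 300 bases. TGTGGT, searched on both strands, was in 5 of these 30 windows (16.7%), against 16.8% of all 32851 windows. The homeodomain core TAATTA was in 3 (10%), against 5.29% of all windows. The 5 windows with TGTGGT belonged to Bglap, Runx2, Dmp1, Enpp1 and Mepe. In LTβR-Ig replicate 1, with 7 CPM of Runx2, Bglap stood at 255 CPM, the lowest value of the LTβR-Ig group, below control replicates 3 and 4 with 588 and 1217 CPM and above control replicates 1 and 2 with 172 and 204 CPM. Of the other members with TGTGGT, Dmp1 had 13.6 CPM and Enpp1 88.6 CPM in that library, both within the range of the other LTβR-Ig libraries. Mepe had no counts there. Sp7 had 36.0 CPM there, above every control. A link of these values to Runx2 was not tested.

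Ifitm5, a membrane protein gene of mineralizing osteoblasts, had 6.29, 17.3, 32.9 and 17.3 CPM with LTβR-Ig, against 4.87, 4.82, 17.7 and 29.9 CPM in control. Cthrc1, a secreted collagen triple helix repeat protein gene, had 6.64, 9.34, 36.0 and 15 CPM with LTβR-Ig, against 7.52, 5.66, 12.0 and 34.1 CPM in control. Both were highest in LTβR-Ig replicate 3 and control replicate 4, as Bglap was. Gja1, which encodes the gap junction protein connexin 43, had 1200, 343, 3030 and 1333 CPM with LTβR-Ig, against 698, 735, 618 and 3145 CPM in control. It too was highest in these libraries, but lowest in LTβR-Ig replicate 2. The log2 fold changes of these 3 genes were 0.36 ± 0.68, 0.18 ± 0.68 and 0.18 ± 0.71 (SE), and without LTβR-Ig replicate 3 they were -0.07, -0.51 and -0.43. Omd, the keratan sulphate proteoglycan osteomodulin, had 46.2 to 135 CPM with LTβR-Ig and 29.9 to 111 CPM in control (0.53 ± 0.43, log2 fold change and SE).

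Tmem119 (chr5:113793729-113800516, minus strand), a transmembrane protein gene active in osteoblasts and known also as a microglia marker, had 16.5, 38.8, 38.5 and 32.1 CPM in LTβR-Ig libraries, against 11, 11.4, 17.5 and 18.9 CPM in control libraries. LTβR-Ig replicates 2 to 4 lay above every control, and LTβR-Ig replicate 1 lay between them. The log2 fold change was 1.1 with a 95% interval of 0.38 to 1.81 (edgeR adjusted p = 0.457). Kcnk2, which encodes the mechanically gated potassium channel TREK-1, had 54.6, 59.2, 44.8 and 110 CPM with LTβR-Ig, against 19.8, 30.5, 46.2 and 51.1 CPM in control. LTβR-Ig replicate 3 lay within the control range, and the other LTβR-Ig libraries were above it. For Kcnk2 the log2 fold change was 0.86 with a 95% interval of 0.04 to 1.68 (edgeR adjusted p = 0.761), and without LTβR-Ig replicate 4 it was 0.52. Limch1, an actin-linked LIM and calponin homology protein gene, had 119 to 246 CPM with LTβR-Ig and 119 to 181 CPM in control (0.32 ± 0.23, log2 fold change and SE).

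Of the mineralization genes, Alpl (chr4:137741733-137796384, minus strand) had the smallest p of the whole list. It encodes tissue-nonspecific alkaline phosphatase, which removes the mineralization inhibitor pyrophosphate. Alpl had 544, 470, 662 and 459 CPM in LTβR-Ig libraries, against 201, 249, 272 and 382 CPM in control libraries. All 4 LTβR-Ig libraries stood above all 4 controls, as for 2.36% of all genes, with control replicate 4 closest. Means were 534 ± 93.4 CPM with LTβR-Ig and 276 ± 76.6 CPM in control (SD, n = 4 each). The difference was 1.93-fold, a log2 fold change of 0.95 with a 95% interval of 0.49 to 1.41. It did not pass edgeR's test across all genes (adjusted p = 0.223). It passed the DESeq2 Wald test (adjusted p = 0.00226) and did not pass limma-voom (adjusted p = 0.144).

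Alpl and Dlx3 were the 2 members whose groups did not overlap in the higher direction, and no member's groups were apart in the lower direction, against 2.53% of all genes. Smpd3, a neutral sphingomyelinase gene whose loss disturbs mouse bone mineralization, had 11.8, 23.3, 30.1 and 18.3 CPM with LTβR-Ig, against 6.63, 2.46, 21.5 and 19.6 CPM in control. The low controls were replicates 1 and 2, and the log2 fold change was 0.74 ± 0.62 (SE). Phospho1, a phosphatase gene of matrix vesicles, reached at most 0.664 CPM in any library and is close to undetected.

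Enpp1, which encodes the enzyme that makes pyrophosphate, had 61.6 to 144 CPM with LTβR-Ig and 112 to 153 CPM in control (-0.31 ± 0.24, log2 fold change and SE). Ank, the gene of the pyrophosphate exporter, had 32.1 to 58.8 CPM with LTβR-Ig and 36.5 to 43.0 CPM in control (0.21 ± 0.19). Mgp encodes matrix Gla protein, an inhibitor of calcification in vessels and cartilage. It had 437, 1083, 408 and 584 CPM with LTβR-Ig, against 523, 387, 211 and 525 CPM in control, and its log2 fold change of 0.61 ± 0.37 (SE) rested on a high LTβR-Ig replicate 2 and a low control replicate 3.

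The osteocyte genes were low or absent apart from Phex. Sost, which encodes the Wnt inhibitor sclerostin and defines mature osteocytes, had no counts in any library. Mepe, a matrix phosphoglycoprotein gene, had 19 and 20 counts in LTβR-Ig replicates 3 and 4, against 7 counts in control replicate 2, and none elsewhere. Dmp1, a matrix protein gene of early osteocytes, had 13.6, 10.3, 12.9 and 24.0 CPM with LTβR-Ig, against 4.62, 2.21, 9.69 and 15.7 CPM in control. Control replicate 4 lay above 3 of the LTβR-Ig libraries, and the log2 fold change was 0.91 with a 95% interval of -0.37 to 2.20. Pdpn, the podoplanin gene of early osteocytes and lymphatic endothelium, stayed at or under 5.54 CPM in every library (0.63 ± 0.91, log2 fold change and SE, and -0.05 without LTβR-Ig replicate 3).

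Phex encodes an endopeptidase of osteoblasts and osteocytes that limits FGF23. It had 253, 173, 224 and 221 CPM with LTβR-Ig, against 177, 179, 173 and 157 CPM in control. LTβR-Ig replicates 1, 3 and 4 were above all controls, and LTβR-Ig replicate 2 lay among them. For Phex the log2 fold change was 0.34 with a 95% interval of 0.06 to 0.63 (edgeR adjusted p = 0.649).

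The members were spread unevenly over the libraries of each group. LTβR-Ig replicate 3 held the highest value for 10 of the 27 tested members (37%), against 12.9% of all genes. Control replicate 1 held the lowest value for 11 (40.7%), against 11.9% of all genes, and the highest value for none. The median deviation of the 11 matrix-stage genes from their mean over the libraries was -0.58, 0.18, 1.30 and 0.44 log2 units in LTβR-Ig replicates 1 to 4. It was -1.20, -0.84, -0.02 and 1.16 in control replicates 1 to 4. For the transcription factors the same median stayed between 0.12 and 0.39 with LTβR-Ig and between -0.35 and 0.23 in control. The range of this median within each group was widest for the matrix-stage genes. A stage median does not rank single genes by their spread. The highest library was 28.9-fold over the lowest for Runx2 and 12.3-fold for Smpd3. The same ratio was 11 for Bglap3 and 2.99 for Ibsp, both matrix-stage genes.

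**Figure D3:**
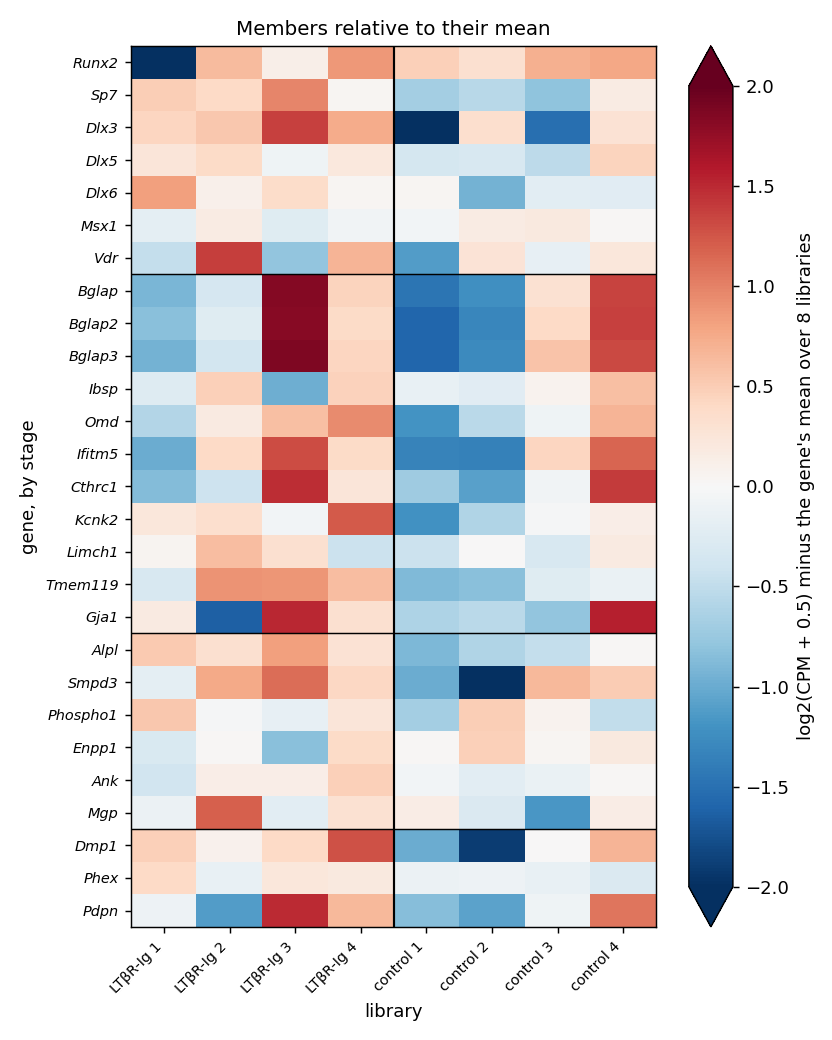
Deviation of each tested member (vertical axis, by stage) from its mean log2 CPM over the 8 libraries (horizontal axis, LTβR-Ig left of control), as colour that ends at ± 2 log2 units. LTβR-Ig replicate 3 and control replicate 4 are high for the osteocalcin genes, Ifitm5, Cthrc1 and Gja1, and the low Runx2 cell is LTβR-Ig replicate 1.

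Co-variation was measured over the 8 libraries as Pearson's r of log2(CPM + 0.5), with exact two-sided permutation over all pairings and Benjamini-Hochberg adjustment. Of the 15 pairs among Sp7, Alpl, Ibsp, Bglap, Phospho1 and Dmp1, only Sp7 with Alpl passed. Its r was 0.95 (exact p = 0.000893, adjusted 0.0134), with Spearman's rho of 0.90 (exact p = 0.00456, adjusted 0.0685). It was 0.96 without the 2 libraries farthest from the median of Sp7. Both genes were higher with LTβR-Ig on average, and after removing the group means r was 0.86 (exact p = 0.0208, adjusted 0.221). Over all 8 libraries no correlation was detected between the most abundant matrix gene and the osteocalcin gene. Ibsp with Bglap had r = -0.04 (exact p = 0.933, adjusted 0.942). The rho of this pair was 0.17 (exact p = 0.703, adjusted 0.812). With 1 library left out its r ranged from -0.32 to 0.83, and was 0.83 without LTβR-Ig replicate 3.

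Against Bglap, 6 of the 26 other tested members passed by Pearson's r and 4 by Spearman's rho, a family of tests added after seeing the data. The share of all genes that would pass against Bglap is not given here, so these counts cannot be called particular to the members. Bglap2 and Bglap3 had r = 1.00 (exact p = 4.96e-05, adjusted 0.000645). Of the 210 coding windows of 76 bases, 166 were identical with Bglap for Bglap2, but 6 for Bglap3. Ifitm5 had r = 0.96 (exact p = 0.000198, adjusted 0.00172) and rho = 0.90 (exact p = 0.00456, adjusted 0.0297). Cthrc1 had r = 0.96 (exact p = 0.000322, adjusted 0.0021) and rho = 0.93 (exact p = 0.00223, adjusted 0.0193). Pdpn and Omd had r = 0.89 and 0.86 (exact p = 0.00449 and 0.00905, adjusted 0.0233 and 0.0392), with rho of 0.83 and 0.86 (exact p = 0.0154 and 0.0107, adjusted 0.0666 and 0.0557). Without the 2 libraries farthest from the median of Bglap, r was 0.94 for Ifitm5, 0.98 for Cthrc1, 0.82 for Pdpn and 0.83 for Omd. After removing the group means, Cthrc1 had r = 0.97 (exact p = 0.00347, adjusted 0.0301) and Ifitm5 r = 0.95 (exact p = 0.00694, adjusted 0.0451). Pdpn with r = 0.89 (exact p = 0.0156, adjusted 0.0813) and Omd with r = 0.86 (exact p = 0.0191, adjusted 0.0828) no longer passed. Alpl had r = 0.59 with Bglap (exact p = 0.127, adjusted 0.299) and rho = 0.60 (exact p = 0.132, adjusted 0.313), and r was 0.08 without the 2 farthest libraries.

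**Figure D4:**
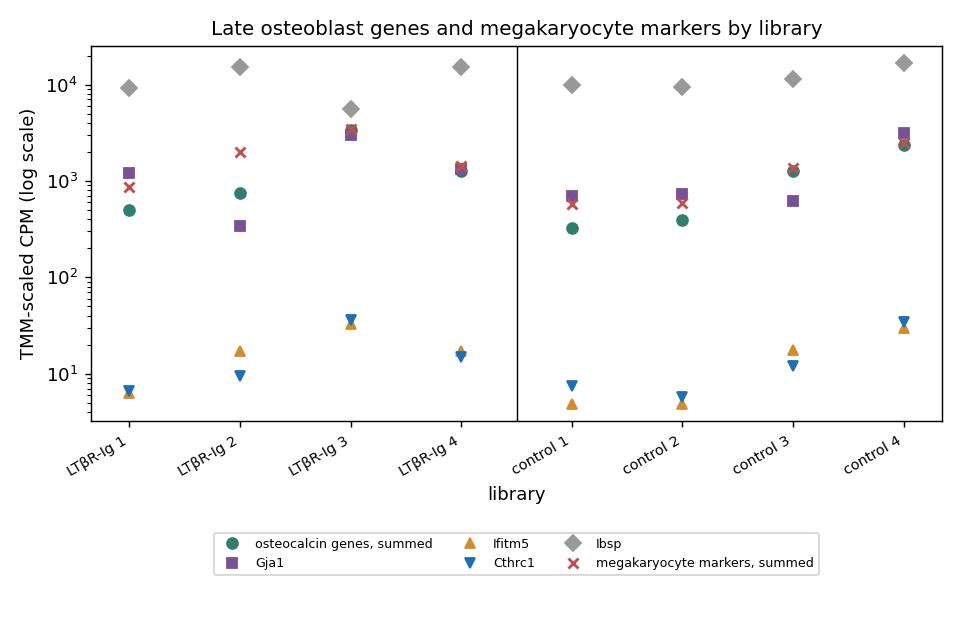
TMM-scaled CPM (log scale) of late osteoblast genes and of the summed megakaryocyte markers in each library, LTβR-Ig left of control. The summed osteocalcin genes reach 3374 CPM in LTβR-Ig replicate 3 and 2384 CPM in control replicate 4, while Ibsp is lowest in LTβR-Ig replicate 3 at 5610 CPM.

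Some markers of other cell types were high in the same libraries as the osteocalcin genes, and others were not. The sum of 6 megakaryocyte markers, all with counts, was 855, 1976, 3461 and 1422 CPM with LTβR-Ig, against 580, 597, 1371 and 2465 CPM in control. Like the osteocalcin sum, it was highest in LTβR-Ig replicate 3 and control replicate 4 of their groups. The sum of 9 LEPR+ stromal markers, all with counts, was instead lowest in LTβR-Ig replicate 3 and control replicate 4 of their groups. It was 39838, 34285, 30843 and 33703 CPM with LTβR-Ig, against 33599, 35812, 31697 and 28494 CPM in control. Lepr alone was lowest of its group in LTβR-Ig replicate 3, at 3159 CPM. In control replicate 4 Lepr had 4282 CPM, against 4270 CPM in control replicate 1. The sum of 8 endothelial markers, all with counts, was 29.7 to 243 CPM with LTβR-Ig and 48.2 to 116 CPM in control. It was highest in LTβR-Ig replicate 3 and control replicate 4. That of 7 chondrocyte markers, all with counts, was 85.6 to 237 CPM with LTβR-Ig and 45.1 to 135 CPM in control. It was highest in LTβR-Ig replicate 3 and control replicate 3. Of 7 osteoclast markers 6 had counts and Calcr was at 0, with sums of 251 to 319 CPM with LTβR-Ig and 240 to 263 CPM in control, highest in LTβR-Ig replicate 1 and control replicate 3. The sum of 5 erythroid markers, all with counts, was 11789, 16227, 26621 and 22580 CPM with LTβR-Ig, against 13479, 11891, 35831 and 23722 CPM in control. That of 6 neutrophil markers, all with counts, was 4070 to 8198 CPM with LTβR-Ig and 3577 to 8508 CPM in control. It was highest in LTβR-Ig replicate 3 and control replicate 4. Plasma and B cell markers, 5 with counts, summed to 140 to 1046 CPM with LTβR-Ig and 198 to 1229 CPM in control, and were lowest in LTβR-Ig replicate 3 and control replicate 4. Their part in the members' values was not tested. Leaving out LTβR-Ig replicate 3 and control replicate 4, a setting chosen after seeing the data, was also tried. The log2 fold change of Alpl was then 1.03 (edgeR adjusted p = 0.198), the log2 fold change of Sp7 was 1.02 (edgeR adjusted p = 0.321) and the log2 fold change of Bglap was 0.42 (edgeR adjusted p = 1). No member was called without them, 6 were higher at an unadjusted p under 0.05, and the median log2 fold change was 0.57. The share of all genes at that unadjusted p is not given for this fit, so the 6 have no background beside them.

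Of 41 other genes of bone formation, 40 were tested, with Fgf23 at 0 counts, and edgeR called none in either direction. At an unadjusted p under 0.05, 7 were higher (17.5% of those tested, against 3.39% of all genes) and 1 was lower with LTβR-Ig (against 2.93% of all genes), and the median log2 fold change was 0.24. DESeq2 called 2 of them higher at an adjusted p under 0.05 and 0 lower, against 0.552 and 0.697% of all genes. Groups did not overlap for 2 of the 40 in the higher and 1 in the lower direction, against 2.36 and 2.53% of all genes. In the list of bone collagen and other matrix genes all 8 had a log2 fold change above 0, where 49.7% of all genes did, with a median of 0.43. Of the matrix folding, secretion and phosphate genes 7 of 11 were above 0 (median 0.24). The same held for 10 of 18 upstream regulators (median 0.06) and 2 of 3 tested osteocyte genes (median 0.11). These lists too were chosen with earlier results of these data known.

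Fkbp10, which encodes a collagen-folding chaperone, had 265, 256, 277 and 244 CPM in LTβR-Ig libraries, against 149, 206, 169 and 185 CPM in control libraries. The groups did not overlap, as for 2.36% of all genes in this direction, and each was tight. The log2 fold change was 0.56 with a standard error of 0.11 (edgeR adjusted p = 0.203, DESeq2 adjusted p = 0.00791). Mmp13, the collagenase gene of late osteoblasts and hypertrophic chondrocytes, had 1349, 1959, 888 and 2784 CPM with LTβR-Ig, against 906, 914, 798 and 874 CPM in control. LTβR-Ig replicate 3 lay among the controls and the other LTβR-Ig libraries lay above them, and the log2 fold change was 1.00 ± 0.30 (SE, edgeR adjusted p = 0.482, DESeq2 adjusted p = 0.0375). Atf4, a factor required for terminal osteoblast function, had 171 to 185 CPM with LTβR-Ig and 135 to 159 CPM in control, which did not overlap (0.30 ± 0.09, log2 fold change and SE).

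The procollagen C-proteinase gene Bmp1, the phosphate transporter gene Slc20a2, the collagen chaperone gene Serpinh1 and the fibrillar collagen gene Col5a2 had log2 fold changes of 0.38 ± 0.13, 0.85 ± 0.30, 0.34 ± 0.13 and 0.46 ± 0.20 (SE). Fam20c, the kinase gene of secreted phosphoproteins of bone, was the one with groups apart in the other direction, at 3.09 to 5.99 CPM with LTβR-Ig and 6.36 to 7.97 CPM in control (-0.77 ± 0.31). The type I collagen genes Col1a1 and Col1a2 had 1387 to 6731 and 3020 to 7376 CPM with LTβR-Ig, against 689 to 4744 and 2341 to 6067 CPM in control. Their log2 fold changes were 0.41 ± 0.64 and 0.24 ± 0.35 (SE), and both were highest in LTβR-Ig replicate 3, without which they were -0.26 and -0.07. Spp1 (osteopontin) and Sparc (osteonectin) had log2 fold changes of 0.61 ± 0.38 and 0.31 ± 0.17 (SE).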

How the data were processed

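RNA of 4 LTβR-Ig and 4 control libraries was measured by paired 76-base polyA sequencing. HISAT2, HTSeq and mm10 appear in the submitters' processing notes. The sources used here give neither their versions nor the annotation release or strand setting. The authors deposited raw counts per gene, whole numbers with no normalization. Groups and replicate numbers came from the sample titles. Symbols and positions came from GENCODE M21 on GRCm38, where 52489 of 52636 gene IDs matched without version. IDs without a symbol held 0.0207 to 0.148% of counts. No pair of libraries within a group agreed within sampling noise, with chi-square per degree of freedom of 140 to 265.

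Genes were tested with edgeR 4.0.16 in R 4.3.3 by the quasi-likelihood F test on all 8 libraries with no covariate, after TMM scaling and filterByExpr (minimum count 10, minimum total 15). Benjamini-Hochberg adjustment covered 16045 genes. The test was first tested on simulated data. Alternatives were upper-quartile or DESeq2 size factors, the DESeq2 1.42.0 Wald test (15931 genes), limma-voom 3.58.1 with quality weights, no filter, a stricter filter (at least 10 counts in 4 libraries and a mean of 5 CPM), a replicate block, and each library left out in turn. The study design names 4 pairs but not what a pair shares, so the main fit held no pairing. Deviations of same-numbered libraries from their group means had correlations of 0.000129 to 0.0749. Levels between genes were compared per kilobase of exon. All 30 members are named. From 41 other bone genes the 8 with the smallest p, and Col1a1, Col1a2, Spp1 and Sparc, are named. The members and lists were chosen with earlier results of these data known. The single-library search for Runx2 and the correlations with Bglap were added after seeing the data.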

Additional observations from a re-analysis of the deposited data

Results flagged for a closer look

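In 3 of 78 gene and group combinations, 1 library stood apart from the other 3 of its group by a gap that is large for the group's range. Chance gives this in about 1 of 20 groups. Control replicate 4 had 77.9 CPM of Dlx5, against 39.5 to 45.7 CPM in the other controls, and 3145 CPM of Gja1, against 618 to 735 CPM. LTβR-Ig replicate 2 had 751 CPM of Serpinh1, against 659 to 667 CPM in the other LTβR-Ig libraries.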

How the results depend on the processing

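Of 428 log2 fold changes of members under another setting, 410 kept their direction and side of the threshold, 17 reversed and 1, Alpl in the Wald test, passed the threshold, and 18 of 27 members kept their direction throughout. Genes called higher and lower numbered 0 and 6 with edgeR. Genes called higher were 2 with DESeq2 size factors, 88 with the DESeq2 Wald test, 2 with limma-voom, 2 without a filter, 5 with the strict filter and 1 without LTβR-Ig replicate 3 and control replicate 4. Genes called lower were 111 with the Wald test, 12 with limma-voom, 17 with the strict filter and 2 without those libraries. With the replicate number as a block, 1 gene was called lower and 0 higher, and no member was called. The Wald test called 1 member higher, and Fkbp10 and Mmp13 among the named bone genes. The transcription factor median log2 fold change was 0.33 with the strict filter and 0.85 without those libraries, where Ibsp was 0.37. With a pseudocount of 0.1, r of Phospho1 with Dmp1 was 0.04. The causes were not tested.

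Leaving out 1 library at a time, genes called higher ranged from 0 to 2 and lower from 2 to 7. Members higher at an unadjusted p under 0.05 ranged from 4 to 7 and lower from 0 to 1, and members with groups apart from 2 to 5 higher and from 0 to 1 lower. The shares of all genes with a library left out are not given here, and smaller groups come apart more easily. These member counts therefore have no background to be read against. The median log2 fold change ranged from 0.27 to 1.00 for members, 0.26 to 0.76 for transcription factors, -0.07 to 1.06 for matrix-stage genes, 0.37 to 0.64 for mineralization genes and 0.34 to 1.46 for osteocyte genes. The values that reversed ranged from -0.73 to 0.01 for Runx2, -0.34 to 1.22 for Bglap, -0.36 to 1.2 for Bglap2, -0.42 to 1.08 for Bglap3, -0.25 to 0.17 for Ibsp, -0.07 to 1.01 for Ifitm5, -0.51 to 1.00 for Cthrc1, -0.43 to 1.11 for Gja1, -0.05 to 1.52 for Pdpn, -0.26 to 0.98 for Col1a1 and -0.07 to 0.54 for Col1a2. The correlations that reversed were Sp7 with Ibsp (-0.39 to 0.41), Sp7 with Phospho1 (-0.28 to 0.29), Alpl with Ibsp (-0.31 to 0.44), Alpl with Phospho1 (-0.19 to 0.55), Ibsp with Bglap (-0.32 to 0.83), Ibsp with Phospho1 (-0.35 to 0.13) and Phospho1 with Dmp1 (-0.40 to 0.56). Without LTβR-Ig replicate 3 the matrix-stage and osteocalcin values were at their lowest. Phospho1, Mepe, Dlx3 and Pdpn are limited by their low counts.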
